A study of Mus musculus with 33 samples.

Results

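RNA was sequenced from embryoid body (EB) outgrowths of 2 mouse embryonic stem (ES) cell clones, ΔK9.1 and ΔK9.2, on days 6 and 8 of differentiation. The comparison uses 10 of the 33 libraries of the series, chosen by their labels: 6 of day 8 (3 per clone) against 4 of day 6 (replicates 2 and 3 of each clone). Both clones were made from E14Tg2a, an ES cell line of strain 129/Ola, and lack on both alleles the stretch between the Nanog enhancer and promoter that carries trimethylation of histone H3 lysine 9 (H3K9me3). The deletion is represented by these 2 clones, and both days carry it. All cells were grown in medium with 10% fetal calf serum, first with the cytokine LIF, then as floating aggregates without it until day 4, and afterwards replated on gelatine until day 6 or day 8. Undeleted E14Tg2a cells taken through the same step (2 libraries of day 6 and 3 of day 8) are used only where the clones are set beside them.

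Aggregates of ES cells that lose LIF leave the pluripotent state, pass through an epiblast-like stage, and in serum switch on genes of the primitive streak, the site where mesoderm and endoderm form in the embryo. Once replated, aggregates attach and spread, and mesenchyme, heart muscle, vessel, blood and endoderm cells are known to arise in such outgrowths. NANOG, OCT4 (encoded by Pou5f1) and SOX2 are the core transcription factors of pluripotency, and their genes are normally shut along this path. Levels below are TPM, each transcript's length-scaled share of its library on 1 common scale. Whole cultures were measured, so fewer cells of a type and less RNA per cell cannot be told apart.

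The days separated on the main axis of variance, and 3 libraries stood apart within their day. Principal component 1 held 48.1% of the variance of the 10 libraries, with day 6 between -54.2 and -28.4 and day 8 between 1.15 and 51.7. The day 8 libraries nearest to day 6 were replicate 3 of ΔK9.1 (1.15) and replicate 1 of ΔK9.2 (4.98). On day 6, replicate 3 of ΔK9.1 had 128 TPM summed over 15 primitive streak genes, against 646 to 877 TPM in the other 3, and 18.5 TPM over 37 Hox and Cdx genes, against at least 106 TPM. Between 13182 and 13795 genes reached 1 TPM per library. The depth behind each value is unknown, since TPM keep no depth.

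**Figure D1:**
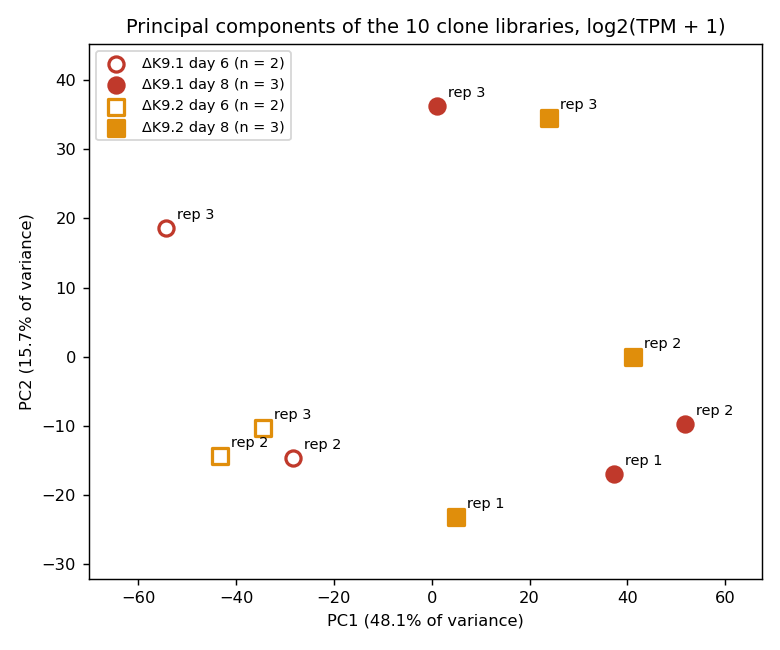
Principal components 1 and 2 of log2(TPM + 1) over the 10 clone libraries, 1 symbol per library, with the percent of variance on each axis. All 6 day 8 libraries lie to the right of all 4 day 6 libraries, and replicate 3 of ΔK9.1 on day 6 lies farthest left at -54.2.

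From day 6 to day 8 the clones raised genes of mesenchyme, heart muscle, BMP signalling, the Hox clusters and imprinted growth control, and lowered genes of pluripotency, the epiblast and Nodal signalling. Of 14730 genes tested with limma, with clone as a covariate, 687 (4.66%) were higher on day 8 and 244 (1.66%) were lower, at a Benjamini-Hochberg adjusted p under 0.05 and a log2 fold change beyond 1. Fold changes are differences of log2(TPM + 1), which understates the change of low genes. All 931 called genes moved the same way in both clones. In 704 of the 931 the libraries of the days did not overlap, whereas 13.2% of all genes tested lay wholly higher on day 8 and 5.58% wholly lower. The 931 were chosen by the change pooled over these same libraries. Both counts largely follow from that choice and give no separate support. The median change over all genes was 0.09, and with libraries rescaled to remove it the counts were 575 and 303. With a pseudocount of 0.1 in place of 1 they were 1092 and 431. Without replicate 3 of ΔK9.1 on day 6 they were 488 and 195, and without the pair of day 8 libraries nearest to day 6 they were 989 and 358.

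Genes were ranked among those called, averaging at least 5 TPM in 1 group, whose days did not overlap within either clone. The 12 largest rises were in Hand2 (4.01), H19, Pyy, Capn6, Igf2, Pitx1, Hand1, Adgra2, Col1a1, C430049B03Rik, Dok4 and Dlk1 (3.13). Hand2 and Hand1 encode helix-loop-helix factors of heart and extraembryonic mesoderm, Pitx1 a homeodomain factor of the hindlimb, Pyy a gut hormone, and Col1a1 a chain of type I collagen. Pyy went from at most 0.95 TPM on day 6 to 6.34 to 65.5 TPM on day 8 (3.92 ± 0.49, adjusted p = 0.00172). The 12 largest falls were in Gm28625 (-4.46), Slc27a2, Foxd3, Platr10, Pim2, Pdzd4, Enpp2, Ina, Trh, Dnmt3b, Cbr3 and Utf1 (-2.23). Foxd3 and Utf1 encode regulators active in ES cells and epiblast, Dnmt3b a de novo DNA methyltransferase, Slc27a2 a fatty acid transporter, Pim2 a survival kinase, and Trh a hormone precursor. Gm28625 was listed at 0 in 4 of the 6 day 8 libraries but at 69.7 TPM in replicate 1 of ΔK9.2, inside its day 6 range of 25.8 to 122 TPM. Its adjusted p was 0.0215, and 0.0641, 0.0678 and 0.0535 without replicate 3 of ΔK9.1, replicate 2 of ΔK9.2 or replicate 3 of ΔK9.2 on day 6.

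**Figure D2:**
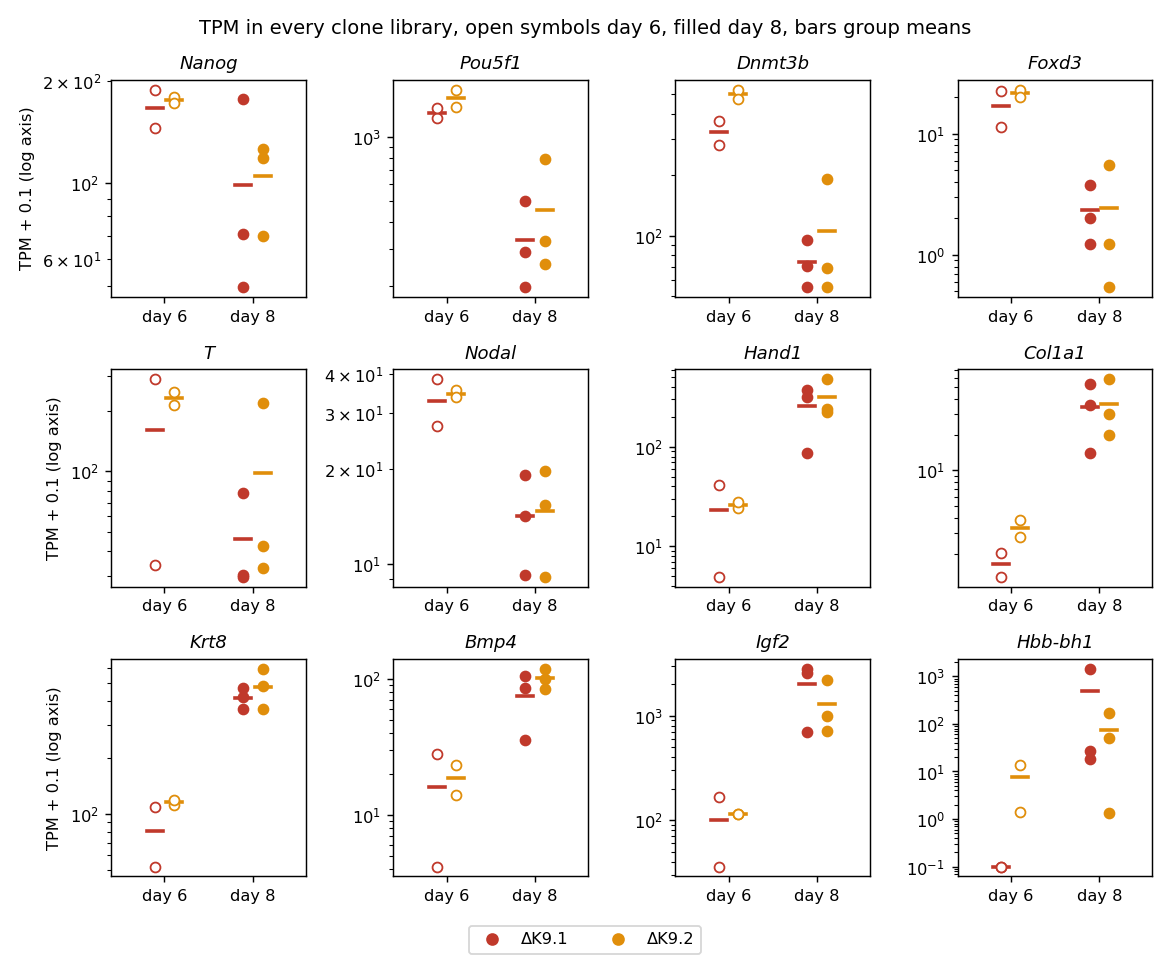
TPM + 0.1 on a log axis in each clone library for 12 genes, by day, with bars at group means. Pou5f1, Dnmt3b, Foxd3 and Nodal lie lower on day 8 with no overlap, Hand1, Col1a1, Krt8, Bmp4 and Igf2 lie higher with no overlap, and the days overlap for Nanog, T and Hbb-bh1.

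Nanog itself (chr6:122707489-122714633, plus strand, mm10), the gene beside the deletion, was not called. It stood at 188 and 145 TPM in ΔK9.1 and 179 and 172 TPM in ΔK9.2 on day 6, and its lowest, median and highest day 8 levels were 49.3, 94.5 and 177 TPM. The highest, replicate 3 of ΔK9.1, lay inside the day 6 range and the other 5 below it. The mean went from 171 ± 18.6 TPM (SD, n = 4) to 102 ± 47.4 TPM (SD, n = 6), a log2 fold change of -0.86 ± 0.31 (SE) with a limma adjusted p of 0.0609. Without replicate 3 of ΔK9.1 on day 8 the adjusted p was 0.00621.

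RNA of Pou5f1, the gene of OCT4, fell in both clones. It stood at 1230.4 and 1369 TPM in ΔK9.1 and 1665 and 1376 TPM in ΔK9.2 on day 6, and at 198, 307 and 789 TPM (lowest, median and highest) on day 8. All day 8 libraries lay below all day 6 libraries (-1.99 ± 0.31, adjusted p = 0.00328). Sox2 fell too (-1.33 ± 0.38, adjusted p = 0.0276), but its days overlapped and it missed an adjusted p of 0.05 in 7 of 19 alternative fits, the highest being 0.0891 without replicate 3 of ΔK9.1 on day 6. Zfp42 (REX1), a marker of the naive state, fell (-1.20 ± 0.26, adjusted p = 0.0106), with an adjusted p of at most 0.0407 in 19 alternative fits, in which the change ran from -1.36 to -0.91.

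Of the 26 pluripotency genes 13 fell and 1 rose, with a median of -1.12. Besides Pou5f1, Sox2 and Zfp42, the naive regulators Esrrb (-1.07), Klf2 (-1.28) and Nr0b1 (-1.64) fell, as did Dppa2, Dppa4, Dppa5a, Tdgf1, Fgf4, Utf1 and Gdf3. The 1 that rose was Tbx3 (1.72), a T-box factor also used in heart and limb mesenchyme. Klf4, Klf5, Lin28a and Sall4 had changes of 0.28, 0.16, -0.09 and -0.31, with adjusted p of 0.293, 0.483, 0.617 and 0.102. Over the 10 fits that each left out 1 clone library, 10 to 17 of the list fell, the fewest without replicate 3 of ΔK9.1 on day 6. In 7 of these fits 0 rose, and Tbx3 was not called.

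The octamer ATTTGCAT, which OCT4 and other POU factors are known to bind, was searched on both strands in the 250 bases upstream of each gene start in RefSeq (GRCm38.p6). Of the 244 genes that fell 172 matched a promoter entry, and 7 of these held it (4.07%), beside 6 of 502 genes that rose (1.20%), 152 of 9911 not called (1.53%) and 490 of 27025 promoters in all (1.81%). Among the 7, Gm14124 and Gm14139 on chromosome 2 have nearly the same sequence, with the match 188 and 185 bases upstream. They may not be separate cases. The shares are a description, and a match is not shown to be a bound site. Pim2 (chrX:7878056-7878305, plus strand) and Zfp42 (chr8:43307010-43307259, minus strand) are shown because both fell and hold the octamer, in capitals, 5′ to 3′ along the gene.
Pim2: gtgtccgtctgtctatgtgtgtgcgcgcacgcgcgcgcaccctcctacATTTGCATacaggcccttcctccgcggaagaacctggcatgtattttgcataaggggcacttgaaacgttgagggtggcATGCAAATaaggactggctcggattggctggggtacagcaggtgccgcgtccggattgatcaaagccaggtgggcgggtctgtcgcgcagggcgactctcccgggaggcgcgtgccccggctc
Zfp42: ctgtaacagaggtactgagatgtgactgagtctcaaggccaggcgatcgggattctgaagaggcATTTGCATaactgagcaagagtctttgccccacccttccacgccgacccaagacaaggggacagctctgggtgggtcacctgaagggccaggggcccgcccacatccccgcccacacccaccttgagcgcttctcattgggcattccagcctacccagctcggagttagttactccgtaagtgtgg
The matches begin 202 and 123 bases upstream of the start in Pim2 and 186 bases upstream in Zfp42. Pim2 was at 342 and 507 TPM in ΔK9.1 and 491 and 501 TPM in ΔK9.2 on day 6 and at 24.9, 80.6 and 256 TPM (lowest, median and highest) on day 8. Its days did not overlap (-2.50 ± 0.61, adjusted p = 0.0161), although the adjusted p was 0.051 and 0.0513 without replicate 3 of ΔK9.1 or replicate 2 of ΔK9.2 on day 6. Zfp42 went from 65.6 ± 22.8 TPM (SD, n = 4) to 29.2 ± 13.7 TPM (SD, n = 6), with overlapping libraries.

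Genes of the formative and primed epiblast, the stage after the naive state, gave 7 falls and 0 rises among 13, with a median of -1.20. Dnmt3b was at 280.1 and 371 TPM in ΔK9.1 and 528 and 476 TPM in ΔK9.2 on day 6 and at 55.4, 69.8 and 189.5 TPM (lowest, median and highest) on day 8. The days were apart (-2.31 ± 0.30, adjusted p = 0.00204). Foxd3 lay between 11.3 and 23 TPM on day 6 and between 0.444 and 5.43 TPM on day 8, also with no overlap (-2.76 ± 0.40, adjusted p = 0.00259). The homeodomain factors Otx2 and Pou3f1 fell (-1.83 and -1.73), as did the neural and epiblast factors Sox3 and Zic2 (-1.20 and -1.72). Fgf5, a growth factor that marks the epiblast, fell (-2.19 ± 0.67, adjusted p = 0.0366), although replicate 3 of ΔK9.1 on day 8 kept 50.8 TPM, inside the day 6 range of 47.8 to 62.5 TPM. Fgf5 missed an adjusted p of 0.05 in 8 of 19 alternative fits, with an adjusted p of up to 0.107, reached without replicate 2 of ΔK9.2 on day 6. When replicate 3 of ΔK9.1 on day 6 was left out, 4 of the 13 fell, and Otx2 and Pou3f1 were not among them.

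Dnmt3b was the 1 gene called among 8 enzymes of DNA methylation. Dnmt3l, the catalytically inactive partner of the de novo enzymes, had a change of -1.28 and just missed the threshold (adjusted p = 0.0515). It passed an adjusted p of 0.05 in 7 of 19 alternative fits, among them those without replicate 3 of ΔK9.1 or of ΔK9.2 on day 8 (adjusted p = 0.00985 and 0.033), in each of which 2 enzymes fell. The maintenance enzyme Dnmt1 was at 80.0 ± 8.79 TPM (SD, n = 4) and 87.1 ± 16.8 TPM (SD, n = 6) (adjusted p = 0.651). Dnmt3a and the oxidising enzyme Tet1 had changes of -0.65 and -0.67, with adjusted p of 0.0275 and 0.00644, under the fold threshold.

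The primitive streak list gave 0 calls among 15 genes, with a median of -0.98, but the count moved with the libraries and the fit. T (Brachyury), the defining streak factor, was at 288 and 34 TPM in ΔK9.1 and 215 and 249 TPM in ΔK9.2 on day 6 and at 29.7, 37.5 and 218 TPM (lowest, median and highest) on day 8. The days overlapped, with replicate 3 of ΔK9.1 low on day 6 and replicate 1 of ΔK9.2 high on day 8 (-1.50 ± 0.64, adjusted p = 0.107). Without the low day 6 library T fell (-2.15, adjusted p = 0.0369), and so did Eomes, Gsc, Wnt3a, Lhx1, Tbx6, Sp5 and Cer1, 8 of the 15, with a list median of -1.52. Without replicate 1 of ΔK9.2 on day 8 the list gave 5 falls, as it did in the fit over all 33 libraries, and with replicates 2 and 3 only it gave 4. With the replicate number as a block it gave 6, T among them (-2.15, limma adjusted p = 0.0121). Mesp1, an early mesoderm factor, was at 18.1 ± 10.2 TPM (SD, n = 4) and 24.5 ± 26 TPM (SD, n = 6) (adjusted p = 0.862).

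Nodal signalling, which induces and patterns the streak, gave 5 falls and 1 rise among 9 genes, counts that stood in each fit without 1 clone library. The ligand Nodal was at 38.3 and 27.3 TPM in ΔK9.1 and 35.3 and 33.6 TPM in ΔK9.2 on day 6 and at 9.02, 14.7 and 19.6 TPM (lowest, median and highest) on day 8. No day 8 library reached the day 6 range (-1.22 ± 0.23, adjusted p = 0.00559). The secreted inhibitors Lefty1 and Lefty2 fell (-1.82 and -1.10), as did the co-receptor Tdgf1 (-1.58) and the ligand Gdf3 (-1.32). Cfc1, a second co-receptor that acts in left-right patterning, rose from between 5.30 and 13 TPM to between 24.1 and 57.4 TPM (2.14 ± 0.28, adjusted p = 0.00204). Foxh1, which carries the signal in the nucleus, was at 85 ± 15.3 TPM (SD, n = 4) and 85.2 ± 22.5 TPM (SD, n = 6) (adjusted p = 0.951).

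**Figure D3:**
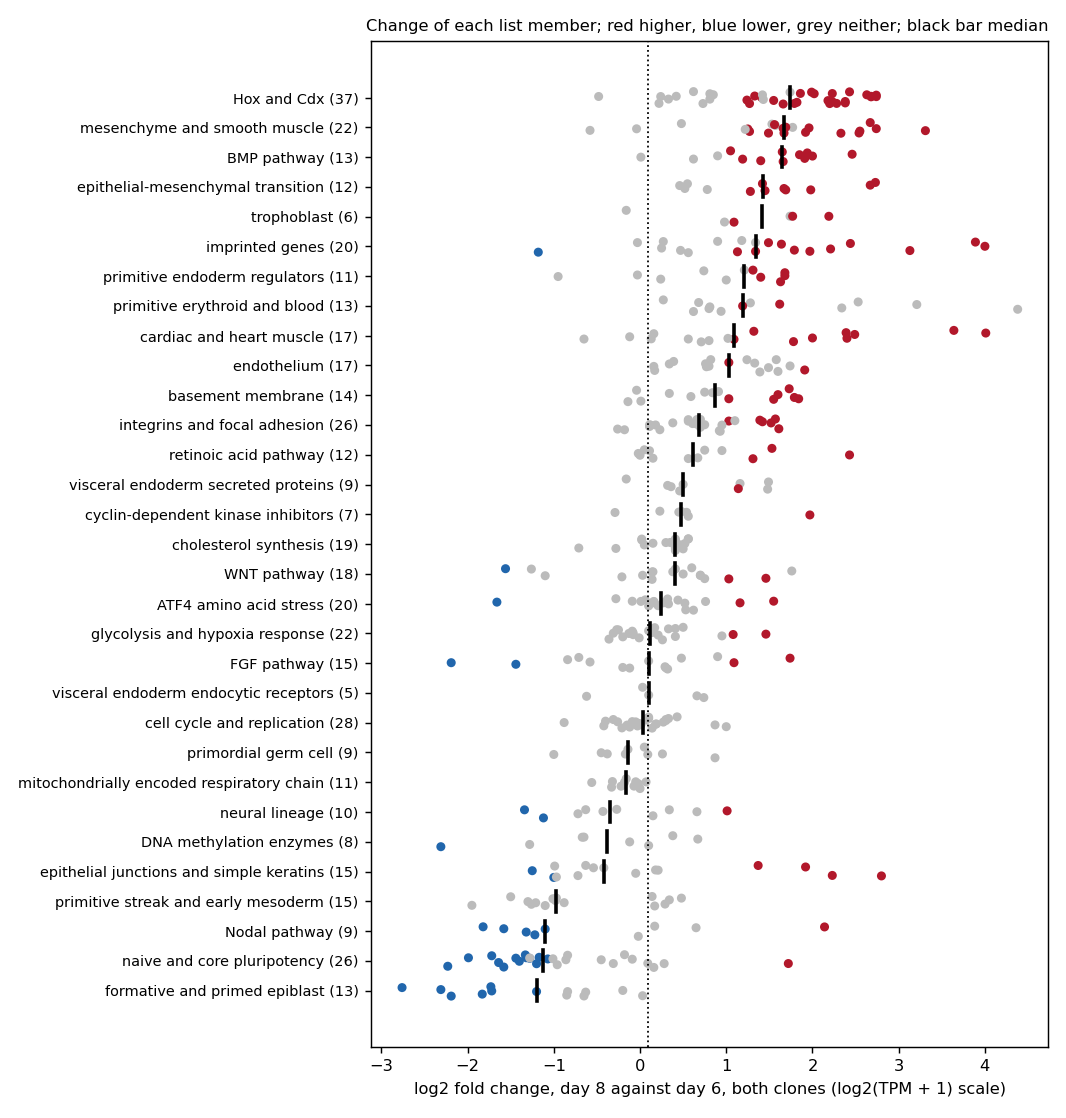
Log2 fold change, day 8 against day 6 over both clones, on the log2(TPM + 1) scale, for each tested gene of 31 lists (red higher, blue lower, grey neither, black bar the list median, dotted line the median of all genes at 0.09). The Hox and Cdx list has the highest median at 1.74 and the formative and primed epiblast list the lowest at -1.20.

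Mesenchyme and smooth muscle genes gave 15 rises and 0 falls among 22, with a median of 1.67. Col1a1 was at 1.92 and 1.18 TPM in ΔK9.1 and 2.64 and 3.74 TPM in ΔK9.2 on day 6 and at 13.8, 32.5 and 58 TPM (lowest, median and highest) on day 8. All 6 day 8 levels exceeded all 4 of day 6 (3.31 ± 0.37, adjusted p = 0.00139). Acta2, the smooth muscle actin, went from 8.73 ± 3.37 TPM (SD, n = 4) to 68.4 ± 48.6 TPM (SD, n = 6) (2.54 ± 0.59, adjusted p = 0.0129). Twist1, Twist2 and Snai2, factors of mesenchyme, rose (1.67, 2.74 and 2.67), as did Msx2 (2.55), a BMP-responsive homeodomain factor. Col3a1, a fibroblast collagen, spanned 0.455 to 49.6 TPM on day 8 and overlapped day 6 (1.68 to 2.21 TPM, adjusted p = 0.116, or 0.0216 without replicate 1 of ΔK9.2 on day 8). Over 19 alternative fits its adjusted p ran from 0.0138 to 0.248, and in 5 of them it was under 0.05. Dcn and Lum, matrix proteins of mature fibroblasts, stayed under the 1 TPM group mean needed for the test. When each clone library was left out, between 11 and 19 genes rose.

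The epithelial-mesenchymal transition list gave 8 rises and 0 falls among 12, of which Snai2, Twist1 and Vim are also in the mesenchyme list. The TGFβ ligands Tgfb2 and Tgfb1 rose (2.73 and 1.98), with the repressor Zeb1 (1.42) and the matrix proteases Mmp2 and Mmp9 (1.28 and 1.45). Cdh2 (N-cadherin) and Snai1 had changes of 0.46 and 0.55 (adjusted p = 0.464 and 0.313). Their levels in replicate 3 of ΔK9.1 on day 6 were 15 and 5.36 TPM, the lowest of all 10 libraries.

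In the basement membrane list 6 of 14 rose (median 0.87). Sparc, a collagen-binding matrix protein, was at 58.5 and 52.5 TPM in ΔK9.1 and 63.7 and 82.5 TPM in ΔK9.2 on day 6 and at 136, 194 and 251 TPM (lowest, median and highest) on day 8. Its days did not overlap (1.55 ± 0.18, adjusted p = 0.00143). The type IV collagen chains Col4a1 and Col4a2 rose (1.60 and 1.84), and so did Nid1 (1.73), Lamb2 and Lama4, while the laminin chains Lama1, Lamb1 and Lamc1 had changes of 0.91, 0.34 and 0.75 (adjusted p = 0.00786, 0.12 and 0.011). Leaving out replicate 3 of ΔK9.1 on day 6 left 3 rises, and Col4a1 had an adjusted p of 0.0549.

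Among 26 integrin and focal adhesion genes 6 rose, the fibronectin receptor chain Itga5, Parva, Csrp1, Cd44, Nexn and Capn2, and 16 were higher by the adjusted p whatever the fold, where all genes had 17.3%. Csrp1, an actin-bundling adaptor, went from 73.3 ± 9.32 TPM (SD, n = 4) to 199.6 ± 42.3 TPM (SD, n = 6) (1.42 ± 0.15, adjusted p = 0.00103). Itgb1, the common β chain, went from 125 ± 8.98 TPM (SD, n = 4) to 199.8 ± 31.6 TPM (SD, n = 6), a change of 0.66 (adjusted p = 0.00427). The count was 10 without replicate 1 of ΔK9.2 on day 8 and 4 without replicate 3 of ΔK9.1 on day 6.

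Heart muscle genes gave 9 rises and 0 falls among 17 (median 1.09), and 8 or 9 rose when each clone library was left out. Hand1 was at 40.9 and 4.82 TPM in ΔK9.1 and 24 and 27.8 TPM in ΔK9.2 on day 6 and at 87.3, 279 and 479 TPM (lowest, median and highest) on day 8. Every day 8 library lay above day 6 (3.64 ± 0.55, adjusted p = 0.00272). Tnnc1, a troponin of heart and slow muscle, rose from between 4.66 and 9.24 TPM to between 26.7 and 65 TPM (2.39 ± 0.23, adjusted p = 0.00076), and the progenitor factors Tbx20 and Isl1 rose (2.49 and 2.00). The atrial myosin Myh6 was at 0.869 ± 0.537 TPM (SD, n = 4) and 0.723 ± 0.421 TPM (SD, n = 6) (adjusted p = 0.736), and Nkx2-5, a defining heart factor, reached at most 2.32 TPM on day 8, a change of 0.71 (adjusted p = 0.0321).

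Of the Hox and Cdx genes, which set position along the trunk, 24 of 37 rose and 0 fell (median 1.74). Hoxc6 was at 2.20 and 0.140 TPM in ΔK9.1 and 0.930 and 0.950 TPM in ΔK9.2 on day 6 and at 5.71, 11.7 and 25.5 TPM (lowest, median and highest) on day 8. Its days did not overlap (2.68 ± 0.46, adjusted p = 0.00444). By paralogue number, which runs from head to tail in the order of expression, 4 of 8 genes of groups 1 to 3 rose (median 0.83), 7 of 11 of groups 4 to 7 (median 1.41) and 13 of 15 of groups 8 to 13 (median 2.20). These bands were drawn with the values known and were not tested against each other. Hoxb1 had a change of 0.24 (adjusted p = 0.732), while Hoxd1 of the same paralogue group rose (2.38 ± 0.50, adjusted p = 0.00896). Cdx2, a factor upstream of trunk Hox genes, was at 39.9 ± 33 TPM (SD, n = 4) and 104 ± 54.1 TPM (SD, n = 6) (adjusted p = 0.0972).

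The count of Hox and Cdx genes moved with single libraries. It was 8 without replicate 2 of ΔK9.2 on day 6, and 27 without replicate 3 of ΔK9.1 on day 8. It was 9 without replicate 3 of ΔK9.1 on day 6, namely Hoxa7, Hoxa9, Hoxc6, Hoxc8, Hoxd1, Hoxd4, Hoxd8, Hoxd9 and Hoxd10, and Cdx1 fell (-1.11, adjusted p = 0.0397).

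**Figure D4:**
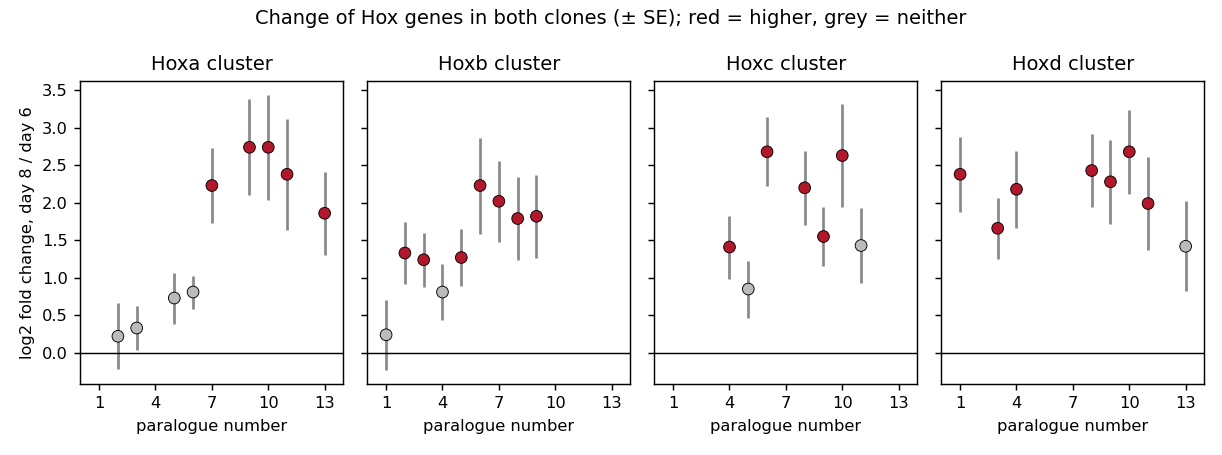
Log2 fold change ± SE, day 8 against day 6 over both clones, on the log2(TPM + 1) scale, for 33 tested Hox genes, by cluster and paralogue number (red higher, grey neither). In the Hoxa cluster Hoxa2 to Hoxa6 are grey and Hoxa7 to Hoxa13 red, with changes of 1.86 to 2.74.

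BMP signalling genes gave 10 rises and 0 falls among 13 (median 1.65), and 11 had all day 8 libraries above all day 6 libraries. The ligand Bmp4 was at 27.9 and 4.06 TPM in ΔK9.1 and 13.7 and 23.1 TPM in ΔK9.2 on day 6 and at 35.3, 92.1 and 118 TPM (lowest, median and highest) on day 8. The days did not overlap (2.46 ± 0.44, adjusted p = 0.00511). The ligands Bmp2, Bmp5 and Bmp7 also rose (1.91, 1.65 and 1.40). So did the target genes Id1, Id2 and Id3 (1.19, 1.66 and 1.05) and the inhibitors Nog, Bambi and Smad6 (1.94, 1.85 and 2.00). Between 9 and 11 rose when each clone library was left out.

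Of the WNT, FGF and retinoic acid genes tested, 3 of 18, 4 of 15 and 3 of 12 were called, beside 6.32% of all genes tested. In the WNT list Wnt4 and Dkk1 rose and Wnt8a fell (1.03, 1.46 and -1.56) among 18, and the common readouts Axin2 and Lef1 had changes of 0.14 and 0.03 (adjusted p = 0.827 and 0.956). When replicate 3 of ΔK9.1 on day 6 was left out, 0 WNT genes rose and 3 fell. Dkk1 and Wnt8a each missed an adjusted p of 0.05 in 9 of 19 alternative fits. In the FGF list of 15 the receptors Fgfr2 and Fgfr3 rose (1.09 and 1.74), the ligands Fgf4 and Fgf5 fell, and the feedback phosphatase Dusp6 was at 69 ± 7.23 TPM (SD, n = 4) and 64.2 ± 12.8 TPM (SD, n = 6) (adjusted p = 0.565). In the retinoic acid list 3 of 12 rose, the receptor Rarb (1.53, with an adjusted p of 0.0534 without replicate 3 of ΔK9.1 on day 6), the degrading enzyme Cyp26b1 (1.31) and the binding protein Crabp1. Crabp1 lay between 13.5 and 56 TPM on day 6 and between 63.1 and 330.0 TPM on day 8 (2.43 ± 0.47, adjusted p = 0.00637).

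Epithelial genes split, with 4 rises and 2 falls among 15. The simple keratins Krt8, Krt18, Krt19 and Krt7 rose (2.23, 1.92, 2.80 and 1.37). Krt18 was at 78 and 68.1 TPM in ΔK9.1 and 90.8 and 108 TPM in ΔK9.2 on day 6 and at 278, 309 and 428 TPM (lowest, median and highest) on day 8. Its days did not overlap (1.92 ± 0.12, adjusted p = 0.000217, the smallest of all genes). Cdh1 (E-cadherin) fell from between 91.5 and 155 TPM to between 30.3 and 88.8 TPM, with no overlap (-1.25 ± 0.28, adjusted p = 0.0109), and so did the epithelial splicing factor Esrp1 (adjusted p = 0.0101). The adhesion molecule Epcam had a change of -0.99 (adjusted p = 0.00894), under the fold threshold. Between 1 and 4 genes of the list fell when each clone library was left out. The count was 1 without replicate 3 of ΔK9.1 on day 6 and without any of replicates 1 and 2 of ΔK9.1 and 2 and 3 of ΔK9.2 on day 8, and 4 without replicate 2 on day 6 or replicate 3 on day 8 of ΔK9.1.

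Of 6 tested genes from the trophoblast list 3 rose, Gata3 (1.77), Plac1 (2.19) and Tfap2a (1.09), the first and last of which also act in surface ectoderm and other tissues. Just 1 of them rose without replicate 3 of ΔK9.1 on day 6. Ascl2, a trophoblast factor, was at 2.36 ± 1.23 TPM (SD, n = 4) and 1.88 ± 0.307 TPM (SD, n = 6) (adjusted p = 0.571).

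Of 11 primitive endoderm regulators 5 rose, Gata6, Gata4, Sox7, Pdgfra and Gata5, all of which are also used in mesoderm. Gata6 was at 9.06 and 0.890 TPM in ΔK9.1 and 7.23 and 4.40 TPM in ΔK9.2 on day 6 and at 6.44, 16.9 and 38.1 TPM (lowest, median and highest) on day 8. The days overlapped (1.68 ± 0.52, adjusted p = 0.0372), and Gata6 missed an adjusted p of 0.05 in 9 of 19 alternative fits. Pdgfra missed it in 10 of 19, Sox7 in 9 of 18, and Gata4 and Gata5 in 5 of 19 each. In 3 of the 10 fits that each left out 1 clone library 0 regulators rose. Without replicate 3 of ΔK9.1 on day 6, 0 regulators rose and Foxa2, an endoderm factor, fell (-1.30, adjusted p = 0.0486). Sox17 was at 4.60 ± 3.47 TPM (SD, n = 4) and 11.5 ± 8.14 TPM (SD, n = 6) (adjusted p = 0.119).

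Of 16 secreted products of visceral endoderm that were measured, 9 were tested and 1 rose, the retinol carrier Rbp4, from between 2.63 and 5.21 TPM to between 5.43 and 16.7 TPM (1.14 ± 0.27, adjusted p = 0.0132, or 0.0531 without replicate 2 of ΔK9.2 on day 6). Afp (α-fetoprotein) had a day 8 median of 1.40 TPM and a highest level of 9.01 TPM, and Ttr (transthyretin) 1.56 and 20.9 TPM, with adjusted p of 0.104 and 0.112. With a pseudocount of 0.1, which weighs low levels more, 3 of the list rose, the median change was 1.24 against 0.50, and Afp and Ttr passed with adjusted p of 0.0387 and 0.035. Ttr also had an adjusted p of 0.0325 without replicate 2 of ΔK9.1 on day 8, with a change of 0.90, under the fold threshold, and in that fit 0 of the list rose. Summed, the list held 291 to 667 TPM on day 6 and 341 to 771 TPM on day 8, mostly Apoe (404 ± 172 TPM (SD, n = 4) and 517 ± 189.5 TPM (SD, n = 6)), an apolipoprotein that many cell types make. Of 5 endocytic receptor genes tested 0 were called, and Cubn and Amn, the receptor pair of absorptive endoderm, stayed at or below 0.84 TPM in all 10 libraries.

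Blood and vessel genes differed widely between day 8 libraries. The embryonic globin Hbb-bh1 was at 0 and 0 TPM in ΔK9.1 and 13.5 and 1.33 TPM in ΔK9.2 on day 6, and at 1.26, 38.9 and 1439.5 TPM (lowest, median and highest) on day 8. The days overlapped (4.38 ± 1.53, adjusted p = 0.0589, or 0.0128 without replicate 1 of ΔK9.2 on day 8). Of 13 blood genes 2 rose (Itga2b and Gata2), and of 17 endothelial genes 2 rose (Egfl7 and Tal1). The vessel receptor Kdr and the junction gene Cdh5 had changes of 1.74 and 1.58 (adjusted p = 0.0528 and 0.0814). Without the pair of day 8 libraries nearest to day 6 the counts were 6 and 11, and without replicate 3 of ΔK9.1 on day 6 they were 0 and 1. Itga2b and Gata2 missed an adjusted p of 0.05 in 10 and 12 of 19 alternative fits.

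Imprinted genes, read from 1 parental allele and often regulators of fetal growth, gave 11 rises and 1 fall among 20 (median 1.34). The growth factor Igf2 was at 166 and 35.8 TPM in ΔK9.1 and 115 and 114 TPM in ΔK9.2 on day 6 and at 701, 1593 and 2793 TPM (lowest, median and highest) on day 8. The ranges of the days were separate (3.89 ± 0.53, adjusted p = 0.00229). H19, the non-coding neighbour of Igf2 on chromosome 7, was at 7.15 TPM in replicate 3 of ΔK9.1 on day 6 and at least 76 TPM in the other 3, against 115 to 2319.6 TPM on day 8 (4.00 ± 0.79, adjusted p = 0.00725). Dlk1, Peg10, Mest and the cell cycle inhibitor Cdkn1c rose (3.13, 2.44, 2.21 and 1.97), with Peg3, Grb10, Igf2r, Slc38a4 and Sgce. Meg3, the non-coding partner of Dlk1, had a change of 0.90 (adjusted p = 0.0212). Snrpn fell (-1.18 ± 0.18, adjusted p = 0.00295), from 239.6 and 279.8 TPM in ΔK9.1 and 568 and 557 TPM in ΔK9.2, and the clones already stood apart on day 6.

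Cell division genes gave 0 calls among 28, with a median of 0.04. Over the 10 fits that each left out 1 clone library 0 fell in any, and 0 rose in 6. Mki67, the proliferation marker, was at 39.4 ± 3.63 TPM (SD, n = 4) and 48.1 ± 8.30 TPM (SD, n = 6) (adjusted p = 0.116). Pcna, the replication clamp, and Cdk1, the mitotic kinase, had changes of -0.31 and 0.30 (adjusted p = 0.0355 and 0.0183), under the fold threshold. Ccnd3 and Ccne1 lay near that threshold, at 0.89 to 1.15 and -1.02 to -0.82 over 19 alternative fits. Their limma adjusted p in these fits were at most 0.0147 and 0.016. Of 7 inhibitors of cyclin-dependent kinases 1 was called, Cdkn1c, and Cdkn1a had a change of 0.48 (adjusted p = 0.179).

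In the neural list of 10 the neuronal genes Tubb3 and Elavl3 fell (-1.12 and -1.34) and Pax3, a factor of dorsal neural tube and somites, rose (1.01). Pax3 stood at the fold threshold, and no neural gene was called as higher in 8 of the 10 fits without 1 clone library, the exceptions being those without replicate 3 of ΔK9.1 or replicate 1 of ΔK9.2 on day 8. Sox1, the neuroectoderm marker, was at 1.72 ± 0.368 TPM (SD, n = 4) and 2.88 ± 3.03 TPM (SD, n = 6) (adjusted p = 0.854). With limma 0 genes were called among 9 germ cell genes, 19 cholesterol synthesis genes and 11 mitochondrial transcripts. In the glycolysis and hypoxia list of 22 the glucose transporter Slc2a3 and the vessel growth factor Vegfa rose (1.08 and 1.46). In the amino acid stress list of 20 the stress factors Ddit3 and Atf3 rose (1.55 and 1.16) and the arginine carrier Slc7a3 fell (-1.66).

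The clones were also compared with each other. The change in ΔK9.2 minus that in ΔK9.1 passed the adjusted threshold in 0 of 14730 genes with limma, with 189 (1.28%) at an unadjusted p under 0.05. With 3 libraries against 2 per clone, 37 genes were called in ΔK9.1 (0.251%) and 191 in ΔK9.2 (1.3%). When each of the 10 libraries was left out the counts ran from 0 to 1268 in ΔK9.1 and from 0 to 716 in ΔK9.2. The highest came without replicate 3 of ΔK9.1 and replicate 1 of ΔK9.2 on day 8. In ΔK9.1 the count was 0 without its replicates 1 or 2 of day 8 or either ΔK9.2 library of day 6, and in ΔK9.2 it was 0 without replicate 2 of ΔK9.1 on day 8.

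Over the same step E14Tg2a cells gave 891 genes higher (5.87%) and 371 lower (2.44%) of 15185 tested. Of these, 350 were also higher in the clones (50.9% of the clones' rises and 39.3% of those of E14Tg2a) and 133 were also lower (54.5% and 35.8%). Of the 931 genes called in the clones 901 (96.8%) had the same sign in E14Tg2a, against 80% of all 14393 genes with a change other than 0.00 in both. The change in the clones minus that in E14Tg2a passed the adjusted threshold in 0 genes, with 1165 (7.67%) at an unadjusted p under 0.05. A fit over all 33 libraries, which takes the spread from every day, called 59 genes, 30 higher in the clones and 29 lower. The largest differences among the 29 were in Postn, of the mesenchyme list, Ly6h and Rnd2. These were -4.16, -2.87 and -2.42, with limma adjusted p of 0.0262, 0.00922 and 0.000463.

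The streak list had medians of -0.98 in the clones, or -1.52 without replicate 3 of ΔK9.1 on day 6, and -3.29 in E14Tg2a. Fgf8, a streak and tailbud growth factor, was at 107 ± 54.8 TPM (SD, n = 4) and then 123 ± 47.2 TPM (SD, n = 6) in the clones, and at 148 and 177 TPM and then 51.5, 6.56 and 28.7 TPM in E14Tg2a. The difference was 3.13 ± 0.90, with an unadjusted p of 0.00434 and an adjusted p of 0.467. Mesp2 and Cer1, 2 of the 15 streak genes, were called in the fit over all 33 libraries, with differences of 2.66 and 2.56 (adjusted p = 0.00103 and 0.0495). So were Hoxb1 and Lefty2, with differences of 2.71 and 2.11 (adjusted p = 0.0204 and 0.01). Nanog fell by 2.28 in E14Tg2a, and its difference of 1.41 had an unadjusted p of 0.0157 and an adjusted p of 0.527. Rbp4 rose by 3.04 in E14Tg2a against 1.14 in the clones (difference -1.90, unadjusted p = 0.00746, adjusted p = 0.503).

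**Figure D5:**
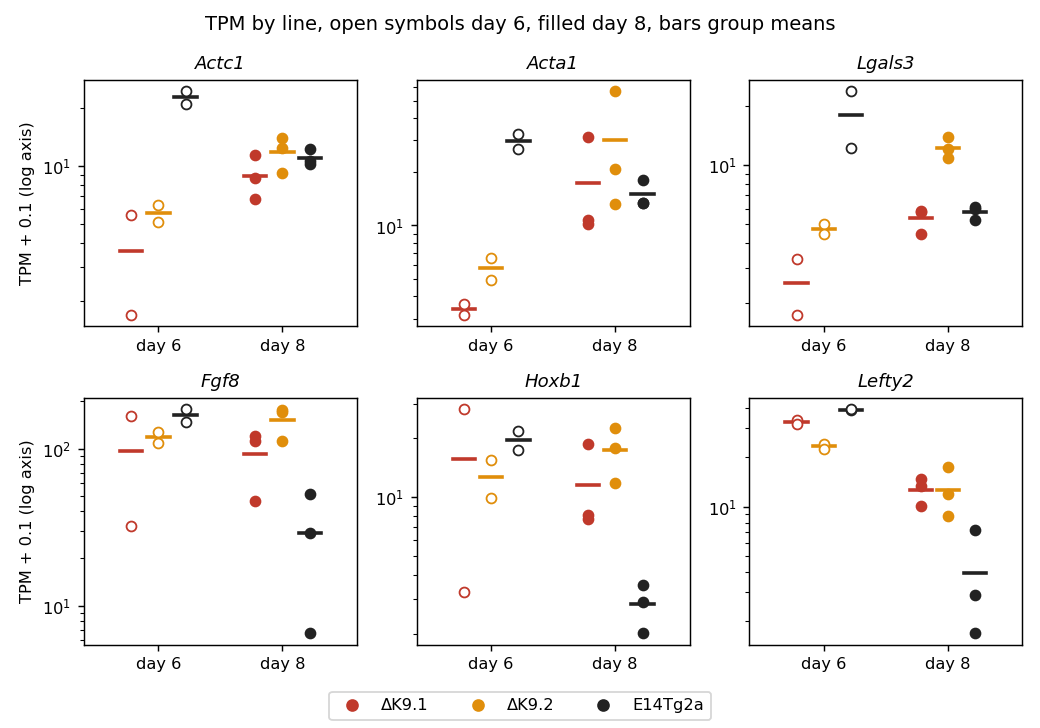
TPM + 0.1 on a log axis in each library of days 6 and 8 for 6 genes, by line and day, with bars at group means. Within each clone Actc1, Acta1 and Lgals3 lie higher on day 8 and in E14Tg2a they lie lower, and Fgf8, Hoxb1 and Lefty2 have their lowest group means in E14Tg2a on day 8.

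The muscle actins Actc1 and Acta1 had higher levels on day 8 in every library of each clone and lower levels in E14Tg2a, where neither change was called (adjusted p = 0.0508 and 0.207). Within single clones the adjusted p ran from 0.0977 to 0.168, and both genes were singled out after their values were seen. Actc1, the heart form, was at 5.48 and 1.59 TPM in ΔK9.1 and 5.02 and 6.15 TPM in ΔK9.2 on day 6 and at 6.63, 10.2 and 13.9 TPM (lowest, median and highest) on day 8, with no overlap (1.09 ± 0.25, adjusted p = 0.0125). In E14Tg2a it was at 20.9 and 24.5 TPM and then 10.1, 12.2 and 10.6 TPM. Acta1, the skeletal form, went from 3.05, 3.51, 4.81 and 6.47 TPM to between 10.1 and 56.8 TPM in the clones, and from 26.9 and 32.6 TPM to 13.3, 13.2 and 18 TPM in E14Tg2a. On day 6 all clone libraries lay below E14Tg2a for both genes, and on day 8 the lines overlapped. The differences in change were 2.08 ± 0.40 and 2.91 ± 0.63, with limma adjusted p of 0.278 and 0.308 over the 15 libraries and 0.0191 and 0.0377 over all 33.

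Both actin promoters held a CArG box, the element that serum response factor is known to bind in muscle genes. Searched on both strands of the same 250 bases, it was in 10 of 502 genes that rose (1.99%), 1 of 172 that fell (0.581%), 141 of 9911 not called (1.42%) and 439 of 27025 promoters in all (1.62%). The sequences are shown because these genes were called in the comparison with E14Tg2a over 33 libraries, with the box in capitals, 5′ to 3′ along the gene (RefSeq, GRCm38.p6, minus strand), for Actc1 at chr2:114052876-114053125 and Acta1 at chr8:123894776-123895025.
Actc1: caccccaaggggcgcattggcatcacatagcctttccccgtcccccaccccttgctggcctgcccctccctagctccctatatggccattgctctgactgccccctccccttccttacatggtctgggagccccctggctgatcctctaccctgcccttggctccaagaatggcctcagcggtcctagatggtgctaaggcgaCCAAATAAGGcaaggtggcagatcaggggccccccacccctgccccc
Acta1: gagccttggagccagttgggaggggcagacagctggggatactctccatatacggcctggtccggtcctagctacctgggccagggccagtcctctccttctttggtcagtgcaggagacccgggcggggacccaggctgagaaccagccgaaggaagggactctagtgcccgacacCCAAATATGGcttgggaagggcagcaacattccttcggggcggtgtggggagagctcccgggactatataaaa
The box begins 47 bases upstream of the start in Actc1 and 73 bases upstream in Acta1.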

How the data were processed

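RNA was measured in 33 libraries of E14Tg2a and the 2 deletion clones, of which 10 are compared and 5 of E14Tg2a are set beside them. The deposited values are TPM, made by the authors from strand-specific paired-end reads with STAR as aligner (genome mm10) and RSEM as quantifier, with outliers on a principal component left out beforehand. Another 22 deposited columns hold the authors' DESeq log2 fold changes and FDR-adjusted p-values and were not used. Gene identifiers and coordinates follow GENCODE M21 on GRCm38. The sources used here do not name the authors' annotation.

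Group and replicate were taken from the sample labels. A gene entered the test if any compared group averaged 1 TPM or more. Tests ran on log2(TPM + 1) with limma 3.58.1 in R 4.3.3 (empirical Bayes with an intensity trend, 2-sided, Benjamini-Hochberg adjustment), with clone as a covariate. The change in each clone, and its difference between clones, came from 4 group means. The comparison with E14Tg2a used 15 libraries. Calls needed an adjusted p under 0.05 and a log2 fold change beyond 1. The methods name DESeq2 on counts, which TPM do not allow. Replicates are described as independent assays, and where these shared cultures the p-values measure only the spread between libraries.

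The libraries, gene lists and bands of Hox genes were chosen with earlier results of these data known. Named genes were Nanog, the 12 largest rises and falls (called, at least 5 TPM, no overlap within either clone), in each of 31 lists the first 4 genes and up to 4 more with the smallest p, and up to 5 per direction in the interactions. Genes named in a count of called list members, and genes outside this rule, were chosen after their values were seen. Promoters came from RefSeq (GRCm38.p6). Alternatives changed the pseudocount, the minimum, the scaling, the libraries, the replicate block and the trend. The result for 1 gene is not reported here.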

Additional observations from a re-analysis of the deposited data

Results flagged for a closer look

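In 6 of the 931 genes called in the clones, every day 8 library lay on 1 side of every day 6 library within each clone and on the other side in E14Tg2a. They were picked out after their values were seen, and with limma over the 15 libraries 0 of the 6 differences passed an adjusted p of 0.05. Over all 33 libraries 5 did, Lgals3 (0.00216), Loxl4 (0.00257), Actc1 (0.0191), Acta1 (0.0377) and Rln3 (0.0377). Lgals3, which encodes galectin-3, had a difference of 2.49 (adjusted p = 0.0586), with 1.64 to 4.90 TPM on day 6 and 4.36 to 13.7 TPM on day 8 in the clones. The actins Acta1 and Actc1 had differences of 2.91 and 2.08 (adjusted p = 0.308 and 0.278). Loxl4, a lysyl oxidase of the matrix, had a difference of 1.68 (adjusted p = 0.278), and the interferon-induced protease gene Usp18 one of 1.46 (adjusted p = 0.507). Rln3, a relaxin, moved the other way (-1.68, adjusted p = 0.278), and stood at or below 0.340 TPM in all 6 day 8 libraries of the clones. In E14Tg2a all its levels lay under 1 TPM, at 0.450 and 0.320 TPM on day 6 and 0.960, 0.490 and 0.590 TPM on day 8 (adjusted p = 0.514).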

How the results depend on the processing

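No gene called between the days turned direction in any alternative fit. Of the alternative results for named genes 3866 kept their side of an adjusted p of 0.05, 246 (in 43 genes) lost it and 91 (in 24 genes) gained it, whatever the fold. Named genes that changed sign, such as Mesp1 (-0.52 to 0.70), missed that p on both sides, and others fell under the fold threshold alone, such as Zfp42 (-0.91 with the replicate block). The 687 higher and 244 lower genes became 1092 and 431 with a pseudocount of 0.1, and ran from 478 to 831 and from 176 to 330 when each library was left out, lowest without replicate 2 of ΔK9.2 on day 6. The 37 genes called in ΔK9.1 became 122 with the pseudocount of 0.1, 106 with a minimum of 5 TPM, 4 with no minimum, 1079 in the fit over all 33 libraries, 71 with replicates 2 and 3 only and 1394 without the pair of day 8 libraries nearest to day 6, an alternative chosen after seeing the data. Leaving out each library gave 0 to 1268. The 191 genes called in ΔK9.2 became 25 with no minimum, 866 over all 33 libraries, 524 with replicates 2 and 3 only, 117 with no intensity trend and 1065 without that pair, and 0 to 716 when each library was left out. The difference between clones, 0 genes, became 1 over all 33 libraries, 2 with replicates 2 and 3 only, 2 without that pair, and 0 to 8 when each library was left out. The difference from E14Tg2a, 0 genes, became 1 with the minimum of 5 TPM, 59 over all 33 libraries, 1 with replicates 2 and 3 only, and 0 to 13 when each library was left out. Where an arm kept 1 library, that library was assumed to vary like the other groups. The cause of these moves was not tested. Depth limits could not be given, since TPM keep no depth.

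With the replicate number as a block 871 genes were higher and 264 lower, 621 were called in ΔK9.1 and 698 in ΔK9.2, 0 differed between clones and 2 from E14Tg2a. The streak list then gave 6 falls, the blood and endothelial lists 6 and 8 rises, the integrin list 10 rises, the mesenchyme list 18 rises, Col3a1 among them (2.22, adjusted p = 0.0154), and the pluripotency list 9 falls. The methods describe 3 independent assays, with the lines differentiated in parallel and collected on each day. They do not say that a replicate number marks 1 assay. Deviations of libraries with the same number correlated with a median r of 0.136 across days within a clone (4 pairs, 2 above 0.1) and 0.271 across clones within a day (5 pairs, 3 above 0.1), and not every library correlated best with its own number.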
